A study of Mus musculus with 6 samples.

Results

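The 9 genes described here encode transforming growth factor beta (TGF-beta) ligands, their receptors, latent binding proteins and 1 protein named for induction by TGF-beta. They are the ligand genes Tgfb1, Tgfb2 and Tgfb3, the receptor genes Tgfbr1, Tgfbr2 and Tgfbr3, the latent binding protein genes Ltbp1 and Ltbp2, and Tgfbi. Members were all probe sets annotated to exactly 1 of these symbols, which gave 9 of 18193 genes and 23 of the 34945 probe sets with a single symbol, and no probe set paired a member with another gene. Their signal was read on 6 arrays, 3 hybridized with ALDH-positive and 3 with ALDH-negative cells of the ovarian surface epithelium (OSE), the layer that covers the ovary. Cells were sorted by ALDEFLUOR staining, a fluorescent assay of aldehyde dehydrogenase (ALDH) activity, with unstained cells and cells given the inhibitor DEAB as controls of the sort. All cells came from digested ovaries of virgin FVB/N mice of 8 weeks, an inbred strain for which the labels name no engineered allele, and all were grown in OSE stem cell medium for 24 hours before the sort. Both fractions were taken from each of 3 pools of 10 mice, so a value is that of a pool, not of an animal.

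TGF-beta ligands are secreted as dimers that stay folded within their own propeptide, and latent TGF-beta binding proteins tether this inactive complex to the extracellular matrix. Released ligand binds the kinase receptor TGFBR2, which recruits and phosphorylates TGFBR1, and the activated receptor phosphorylates SMAD2 and SMAD3. TGFBR3, also called betaglycan, is a coreceptor without a kinase that presents ligand, above all TGF-beta 2, to TGFBR2. In the ovary the pathway is known for restraining proliferation of the surface epithelium and for promoting its shift to a mesenchymal state in culture.

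Levels below are log2 signal after quantile normalization, and differences are ALDH-positive minus ALDH-negative values of the same pool, averaged over the 3 pools. A limma fit with the pool as a block tested 27022 probe sets, those above a mean level of 2.73 over the 6 arrays, and p-values were adjusted over all of them. No member passed an adjusted p of 0.05, and neither did any other probe set (0% called), while 661 of the 27022 had an unadjusted p under 0.05 (2.45%). Of the 23 member probe sets, 17 lay above the filter level, at least 1 for each of the 9 genes, and 6 lay below it. In bulk samples, fewer cells of a type and less RNA per cell cannot be told apart.

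One array, that of ALDH-negative cells in pool 2, differed from all others. Its correlation with them over all probe sets was 0.558 to 0.679, against 0.850 to 0.974 among the other 5, and tested values that move by over 1.5 times or change sign without its pool are also given without it. Markers of the labelled surface epithelium were present, with all 11 listed genes above the filter level. Their mean log2 level was 6.91 to 7.64 on ALDH-positive arrays and 3.88 to 4.34 on ALDH-negative arrays. On ALDH-negative arrays the epithelial transcription factor gene Bnc1 averaged 1.78, the mesothelial gene Lrrn4 1.83 and the cadherin gene Cdh1 2.62, all below the filter level. The other listed genes averaged above it there, up to 6.90 for Krt8. The mean over stroma markers was 6.145 to 6.33 on ALDH-positive arrays and 4.42 to 5.58 on ALDH-negative arrays, with Lum below the filter level. These marker levels differ between the same samples as the member values below, and their part in the member differences was not tested.

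Ltbp2, Tgfb3 and Tgfb2 were the members with higher signal in ALDH-positive cells at an unadjusted p under 0.05. Of the 17 tested probe sets 4 met this rule, 2 of them of Tgfb2, where 2.04% of all tested probe sets met it in that direction, and no member probe set or gene met it in the other direction (0.403% of all probe sets and 0.429% of all genes). Ltbp2 stood 2.71 higher on the log2 scale, Tgfb2 2.30 and Tgfb3 2.21. Tgfbr2 lay 1.28 higher in the mean, and Tgfb1, Tgfbr1, Tgfbr3 and Tgfbi differed by less than 0.5 at the probe set of highest mean. The mean of Ltbp1 was set by pool 2.

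**Figure D1:**
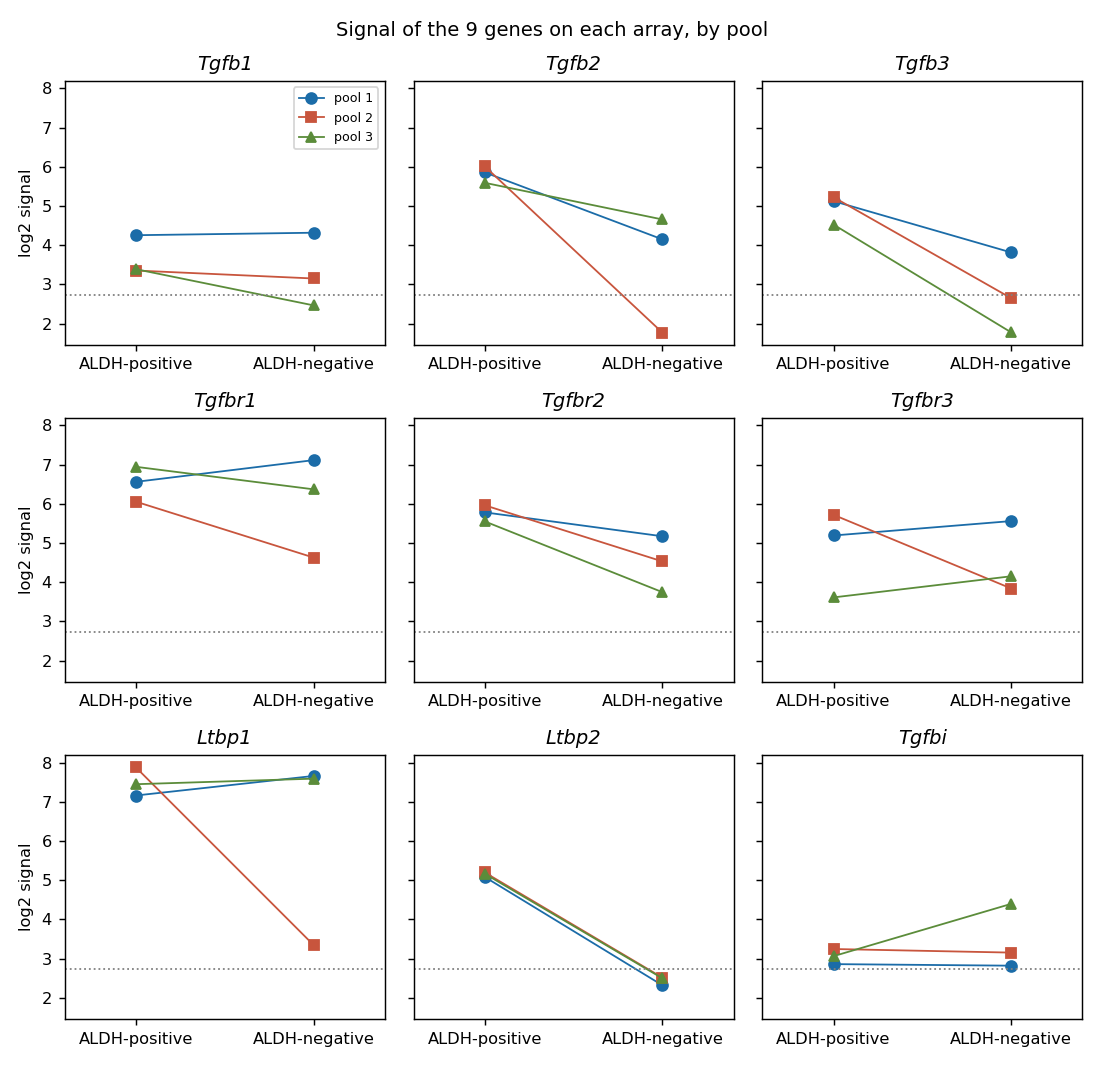
Log2 signal of the 9 genes, each by its probe set of highest mean, on every array, with ALDH-positive at the left and ALDH-negative at the right of each panel. Points are arrays, lines join the arrays of a pool and the dotted line is the filter level of 2.73. The 3 lines of Ltbp2 nearly coincide, while Ltbp1 drops on the ALDH-negative array of pool 2 alone.

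Tgfb1 encodes the ligand TGF-beta 1, the form most studied in fibrosis and immune control. Its tested probe set, 1420653_at, read 4.25, 3.35 and 3.39 in ALDH-positive cells of pools 1 to 3, against 4.32, 3.15 and 2.46 in ALDH-negative cells. The groups overlapped, with both arrays of pool 1 highest. The mean difference was 0.35 (SE 0.65, n = 3 pools), smaller than its error. The other probe set, 1445360_at, lay below the filter and read 1.91 to 2.69 in ALDH-positive cells and 2.275 to 3.74 in ALDH-negative cells. It differed by -0.49, so the 2 probe sets pointed in opposite directions.

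Tgfb2 encodes TGF-beta 2, the ligand that depends most on the betaglycan coreceptor. Of its 4 probe sets, 1450923_at read 5.86, 6.01 and 5.59 in ALDH-positive cells, against 4.15, 1.77 and 4.65 in ALDH-negative cells. Every ALDH-positive array lay above every ALDH-negative array, and the lowest value was that of pool 2. The difference was 2.30 (SE 0.82), a fold of 4.91, with 1.71, 4.24 and 0.94 in pools 1 to 3, and 1.42 without pool 2. Its unadjusted p was 0.0245 and its adjusted p 0.895 in limma. Probe set 1450922_a_at gave 5.06, 5.82 and 6.33 in ALDH-positive cells and 4.08, 2.84 and 3.48 in ALDH-negative cells. Here too the groups did not overlap, and the spread over pools was smaller. Its difference was 2.27 (SE 0.71), with 0.97, 2.97 and 2.85 in the pools and 2.035 without pool 2. The remaining probe sets showed less. Probe set 1423250_a_at differed by 0.60 (SE 0.67), or 0.40 without pool 2, and was lower in ALDH-positive cells of pool 3, by -0.25. Probe set 1438303_at was higher in all 3 pools but by only 0.50 in the mean (SE 0.64). The 4 probe sets of Tgfb2 thus shared a direction and disagreed on size.

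Tgfb3 encodes TGF-beta 3, a ligand known for its role in palate fusion, and had a single probe set, 1417455_at. It read 5.12, 5.22 and 4.52 in ALDH-positive cells, against 3.81, 2.65 and 1.77 in ALDH-negative cells. The groups did not overlap, and pool 3 was the lowest in both. The difference was 2.21 (SE 0.67, unadjusted p = 0.0123 and adjusted p = 0.895 in limma), a fold of 4.64, with 1.31, 2.58 and 2.75 in pools 1 to 3. It was 2.11 without pool 2. The ALDH-negative values of pools 2 and 3 lie below the filter level.

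The sequences before the starts of Tgfb1 and Tgfb2 are shown because the first ligand gene showed no difference beyond its error and the second had 2 probe sets whose groups did not overlap. They are the 250 bases before the RefSeq start in GRCm38.p6, 5′ to 3′ on the gene's strand. RefSeq's promoter table matched 7 of the 9 members, and Tgfb3 and Tgfbr3 are named only. Capitals mark exact matches, on either strand, to the Smad element CAGAC, the core of the cAMP response element TGACG, the E-box CACGTG, the GC box GGGCGG and the TATA box TATAAA. Also searched, and in neither window, were the AP-1 element TGACTCA (4.46% of all windows), the whole cAMP element TGACGTCA, which contains the core (1.55%), the longer CAGA box AGCCAGACA, which contains the Smad element (0.301%), and the Smad palindrome GTCTAGAC (0.167%).
Tgfb1, chr7:25686752-25687001, plus strand: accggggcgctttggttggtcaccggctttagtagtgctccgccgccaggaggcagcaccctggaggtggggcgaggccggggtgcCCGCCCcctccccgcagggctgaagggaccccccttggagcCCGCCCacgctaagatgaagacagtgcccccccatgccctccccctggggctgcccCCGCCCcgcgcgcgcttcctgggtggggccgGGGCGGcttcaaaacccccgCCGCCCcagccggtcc
Tgfb2, chr1:186705990-186706239, minus strand: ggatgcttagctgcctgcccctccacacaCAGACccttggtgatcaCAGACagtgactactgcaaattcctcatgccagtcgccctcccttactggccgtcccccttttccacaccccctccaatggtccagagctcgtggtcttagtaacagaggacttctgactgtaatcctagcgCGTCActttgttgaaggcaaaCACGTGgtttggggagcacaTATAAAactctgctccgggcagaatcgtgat
The Tgfb1 window held 5 GC boxes and no match to the other motifs, at a G and C content of 75.2%. The Tgfb2 window held a TATA box 31 to 26 bases before the start, an E-box at 51 to 46, a cAMP element core at 72 to 68 and 2 Smad elements further out, at 53.6% G and C. It lies within the annotated span of the gene, since another transcript starts further upstream. Among 32851 windows of that length, 12.4% held a TATA box, 6.02% the E-box, 17.8% the cAMP core, 32.7% a GC box and 42.2% a Smad element. A match of letters describes the window and shows no binding.

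Among the receptors, Tgfbr2 encodes the type II kinase that binds ligand first. Probe set 1426397_at, which stands for the gene, read 5.78, 5.96 and 5.55 in ALDH-positive cells, against 5.17, 4.53 and 3.75 in ALDH-negative cells. Every ALDH-positive array was above every ALDH-negative one. The difference was 1.28 (SE 0.66, unadjusted p = 0.0893 and adjusted p = 0.895 in limma), a fold of 2.43, with 0.61, 1.43 and 1.81 in pools 1 to 3 and 1.29 without pool 2. A second probe set, 1425444_a_at, did not share this pattern. It read 3.81, 3.84 and 3.69 in ALDH-positive cells and 3.86, 5.27 and 3.13 in ALDH-negative cells, a difference of -0.30 (SE 0.70) that was 0.27 without pool 2. The third, 1422019_at, read 0.68 to 0.74 in ALDH-positive cells and 0.58 to 1.14 in ALDH-negative cells, near the bottom of the scale.

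Tgfbr1 encodes the type I kinase that signals to the Smads. Probe set 1420895_at read 6.56, 6.06 and 6.95 in ALDH-positive cells and 7.12, 4.63 and 6.37 in ALDH-negative cells. The groups overlapped, and the pool differences of -0.55, 1.43 and 0.57 had no common sign. Its mean was 0.48 (SE 0.70). The other probe sets gave means of 0.57 (SE 0.69) and 0.54 (SE 1.10), each with its highest pool difference in pool 2. Without pool 2 the 3 probe sets stood at 0.0098, 0.023 and -1.22. The probe set that turned, 1420893_a_at, read 4.52 and 1.54 in ALDH-positive cells of pools 1 and 3, against 5.31 and 3.11 in ALDH-negative cells.

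Tgfbr3 encodes betaglycan, which in the ovary also serves as a coreceptor for inhibin. Probe set 1425620_at read 5.19, 5.72 and 3.61 in ALDH-positive cells, against 5.56, 3.84 and 4.15 in ALDH-negative cells. The groups overlapped, and pool 2 alone was higher in ALDH-positive cells. The mean difference was 0.32 (SE 0.75) and without pool 2 it was -0.485. Probe set 1433795_at followed it, with pool differences of -0.57, 1.33 and 0.0059 and a mean of 0.26 (SE 0.70), or -0.30 without pool 2.

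**Figure D2:**
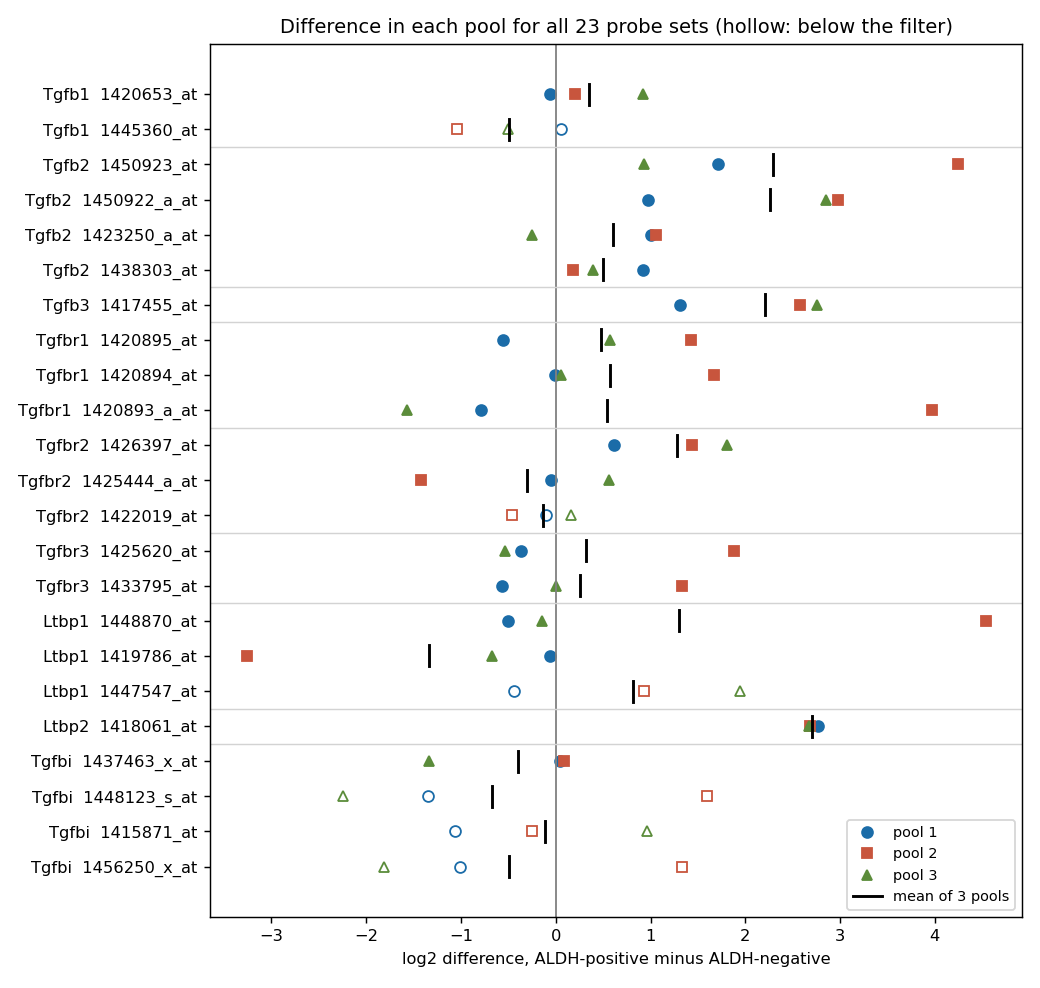
Log2 difference, ALDH-positive minus ALDH-negative, in each pool for all 23 probe sets of the 9 genes, with hollow symbols for the 6 probe sets below the filter and a bar at the mean of the 3 pools. The single probe sets of Ltbp2 and Tgfb3 and 3 of the 4 of Tgfb2 lie right of 0 in every pool, and the pool 2 squares are the outermost points of the tested probe sets of Ltbp1, Tgfbr1 and Tgfbr3.

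Ltbp2 encodes a latent binding protein family member that, unlike LTBP1, is known to sit on microfibrils without binding latent TGF-beta itself. Its only probe set, 1418061_at, read 5.08, 5.20 and 5.17 in ALDH-positive cells, against 2.32, 2.51 and 2.50 in ALDH-negative cells. The 2 groups were far apart and tight within themselves. ALDH-positive cells averaged 5.15 ± 0.059 and ALDH-negative cells 2.44 ± 0.11 (SD, n = 3 each). The difference was 2.71 (SE 0.63), with 2.77, 2.68 and 2.67 in pools 1 to 3, an unadjusted p of 0.00316 and an adjusted p of 0.895 in limma. It had the smallest p of the 17 tested member probe sets and ranked 59th of 27022. In the values as deposited the pools were less close, at 3.23, 2.48 and 2.39. The ALDH-negative level lies below the filter level, so the fold of 6.53 is against a dim signal and the probe set passed the filter through its ALDH-positive level.

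The window before the start of Ltbp2 is shown because this gene had the smallest p among the members. Of its 250 bases, the 67 next to the start lie inside the annotated gene, and the other 183 are printed, with the same marks.
Ltbp2, chr12:84876559-84876741, minus strand: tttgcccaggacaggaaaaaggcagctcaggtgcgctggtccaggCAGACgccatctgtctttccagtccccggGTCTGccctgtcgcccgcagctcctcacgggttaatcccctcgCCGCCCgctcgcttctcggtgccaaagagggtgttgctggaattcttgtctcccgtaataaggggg
The printed stretch holds 2 Smad elements, 1 on each strand, at 205 to 201 and 176 to 172 bases before the start, and a GC box at 133 to 128. A Smad element is in 42.2% of all windows, so the matches are common ones.

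Ltbp1 encodes the binding protein that links to the propeptide of latent TGF-beta and carries it into the matrix. Probe set 1448870_at read 7.16, 7.88 and 7.45 in ALDH-positive cells, against 7.66, 3.35 and 7.59 in ALDH-negative cells. The ALDH-negative array of pool 2 was far below the other 5, which lay close together. The mean difference of 1.30 (SE 1.05) came from pool 2, at 4.53, while pools 1 and 3 gave -0.50 and -0.14. Without pool 2 the difference was -0.34. A second probe set, 1419786_at, was highest on that same array. It read 3.25, 2.86 and 3.56 in ALDH-positive cells and 3.32, 6.12 and 4.23 in ALDH-negative cells, a difference of -1.33 (SE 0.81) that was -0.39 without pool 2. The third, 1447547_at, lay below the filter, at 1.10 to 3.55 in ALDH-positive cells and 1.03 to 1.61 in ALDH-negative cells.

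Tgfbi encodes a secreted matrix protein that binds integrins and is induced by TGF-beta in many cells. Of its 4 probe sets, 3 lay below the filter and 1 was tested. That probe set, 1437463_x_at, read 2.86, 3.24 and 3.06 in ALDH-positive cells, against 2.82, 3.15 and 4.40 in ALDH-negative cells. The fractions lay close in pools 1 and 2 and differed by -1.33 in pool 3, and the mean was -0.40 (SE 0.68), or -0.68 without pool 2. The probe sets below the filter had means of -0.67, -0.11 and -0.50. Probe set 1448123_s_at read 2.32, 3.10 and 1.65 in ALDH-positive cells and 3.67, 1.51 and 3.90 in ALDH-negative cells. Its sign in pool 2 opposed that in pools 1 and 3, and without pool 2 it differed by -1.84.

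Over the 17 tested member probe sets, 14 lay higher in the mean in ALDH-positive cells and 3 lower, where 48.2% of all tested probe sets lay higher. In all 3 pools 6 lay higher (11.5% of all) and 1 lower (10.8% of all), and for 5 every ALDH-positive array was above every ALDH-negative array (3.49% of all), while for none was every one below (3.40% of all). These 5 were Ltbp2, Tgfb3, Tgfbr2 at 1426397_at, and Tgfb2 at 1450923_at and 1450922_a_at. The median difference of the 17 was 0.54, against -0.04 over all tested probe sets. By pool the member medians were -0.01, 1.43 and 0.39, and without pool 2 the median was 0.27. Leaving out pool 2 kept all 4 probe sets with an unadjusted p under 0.05 and added Tgfbr2 at 1426397_at as higher, and Tgfbr1 at 1420893_a_at and Tgfbi at 1448123_s_at, which passed the filter there, as lower. Leaving out pool 3 kept 2 of the 4, Ltbp2 and Tgfb2 at 1450923_at. Of all tested probe sets, 4.53% met the rule in either direction without pool 2 and 3.30% without pool 3.

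The genes whose levels over the 6 arrays were most like those of each ligand were found by Pearson correlation among the 12814 genes with a tested probe set. Tgfb3 was most like Tgfbr2 (r = 0.993 over 6 arrays, and 0.996 over the 5 without the ALDH-negative array of pool 2), followed by the kinesin gene Kifc3 and the transcription factor gene Elf4. Tgfb2 was most like Akap12, which encodes a scaffold of protein kinase A (r = 0.998, and 0.993 over 5 arrays), then the calcium pump gene Atp2b1 and the RNA-binding protein gene Rbpms. Tgfb1 was most like the adenylate kinase gene Ak1 (r = 0.977, and 0.995 over 5 arrays), then Pomt1 and Hmces. The arrays share pools and 1 array stands far from the rest, so these are descriptions of a likeness and no test was made of them.

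Proteins that process or release the ligands showed no common direction in the mean. Of 25 listed genes 23 were on the array by a single-symbol probe set and 21 were tested, of which 11 lay higher and 10 lower in the mean. In all 3 pools 4 lay higher (11.3% of all genes) and 0 lower (11.4% of all genes). None passed, 1 had an unadjusted p under 0.05 in the higher direction (1.93% of all genes tested) and the median difference was 0.22, or 0.12 without pool 2, against -0.08 over all genes tested, of which 46.0% lay higher in the mean. That gene was Mmp2, a gelatinase able to release latent ligand, at 2.08 (SE 0.79), with 1.31, 3.90 and 1.03 in the 3 pools, or 1.26 without pool 2. The transglutaminase gene Tgm2, which crosslinks latent complexes to matrix, stood at 1.43 (SE 0.71), and the membrane protease gene Mmp14 at 1.25 (SE 0.68). Other tested probe sets of Tgm2 ranged from 0.42 to 1.66. Ltbp4 stood at 1.26 (SE 0.72), and Ltbp3 at -0.12 (SE 0.64, and -0.23 without pool 2), both latent binding protein genes. The ALDH-negative level of Ltbp4 averaged 2.13, below the filter level. Other tested probe sets of Ltbp3 reached 0.87. Furin, the convertase that cleaves the propeptide, stood at -0.98 (SE 0.75) and at -0.25 without pool 2. The integrin subunit gene Itgav, whose product releases ligand under tension, stood at 0.55 (SE 0.68), with 0.15, 1.48 and 0.0029 in pools 1 to 3 and 0.082 without pool 2. Other tested probe sets of Itgav ranged from 0.033 to 1.63. Thbs1, which encodes an activator of latent TGF-beta, stood at 0.22 (SE 0.85) and at -0.91 without pool 2. Another tested probe set of Thbs1 gave 0.94 with all pools.

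Receptor partners and Smads showed no common direction in the mean. Of 24 tested genes 13 had a mean difference above 0 and 11 below it, where 46.0% of all genes lay above 0. The median was 0.24, or 0.145 without pool 2, against -0.08 over all genes tested. In all 3 pools 7 lay higher (11.3% of all genes) and 3 lower (11.4% of all genes). None had an unadjusted p under 0.05, where 1.93% of all genes did in the higher and 0.429% in the lower direction. Pmepa1, a membrane protein that sequesters Smads and is itself induced by TGF-beta, stood at 1.57 (SE 0.68), with 2.23, 1.81 and 0.68 in pools 1 to 3. The other tested probe sets of Pmepa1 reached down to 0.024. Bambi, a decoy receptor without a kinase, stood at 1.53 (SE 0.68), and the endocytic adaptor gene Dab2 at 1.53 (SE 0.73), with 0.59, 2.90 and 1.09 in the pools and 0.90 without pool 2. Other tested probe sets of Dab2 reached down to 0.47. Every ALDH-positive array lay above every ALDH-negative array for 4 of the 24 genes, Pmepa1, Bambi and Dab2 among them, and for 3.55% of all genes. For 2 of the 24, Eng and Smad2, every ALDH-positive array lay below, as it did for 3.40% of all tested probe sets. Eng, which encodes the endothelial coreceptor endoglin and is also among the endothelial markers, lay lower in ALDH-positive cells in all 3 pools, by -1.16 in the mean (SE 0.65). Smad2 stood at -1.64 (SE 0.73), or -1.02 without pool 2, at its probe set of highest mean, but another tested probe set gave 1.87, so the gene has no settled direction. Smad3 stood at -0.19 (SE 0.80) and the inhibitory Smad7 at -0.94 (SE 0.85), and both were above 0 without pool 2, at 0.79 and 0.17. With all pools, another tested probe set gave 1.10 for Smad3 and 0.91 for Smad7, so the sign also depended on the probe set.

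The genes listed as common readouts of TGF-beta signalling lay mostly higher in the mean in ALDH-positive cells. Of the 25, 24 were on the array by a single-symbol probe set. Of 21 tested target genes 18 lay higher in the mean and 3 lower, where 46.0% of all genes lay higher. In all 3 pools 13 lay higher (11.3% of all genes) and 1 lower (11.4% of all genes). None passed the adjusted threshold, and 7 had an unadjusted p under 0.05 in the higher direction, where 1.93% of all genes did. The smooth muscle actin gene Acta2 stood at 3.59 (SE 0.68), the collagen gene Col3a1 at 3.90 (SE 0.77), the actin-binding protein gene Tagln at 2.94 (SE 0.67) and the fibronectin gene Fn1 at 2.61 (SE 0.63). Fn1 was close in all pools, at 2.57, 2.75 and 2.50. The other 3 of the 7 were Lox, which encodes a collagen crosslinking enzyme, at 2.10 (SE 0.70), Col1a1 at 1.94 (SE 0.79) and the matricellular growth factor gene Ccn2 at 2.48 (SE 1.01). The difference of Ccn2 was 5.53 in pool 2, against 1.04 and 0.85 in pools 1 and 3, and 0.96 without pool 2. The median over the 21 genes was 1.03, against -0.08 over all genes tested. It was 0.39, 1.33 and 0.30 by pool, and 0.48 without pool 2.

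The target list shares Acta2, Tagln, Col1a1 and Col3a1 with the marker lists of smooth muscle and stroma. Over its other 17 tested genes, 3 had an unadjusted p under 0.05 in the higher direction, where 1.93% of all genes did. The median was 0.75, or 0.24 without pool 2, against -0.08 over all genes tested. Among its transcription factor genes, Junb stood at 0.39 (SE 0.68) and at -0.078 without pool 2, and Klf10 at 1.43 (SE 0.77) with 0.12, 3.03 and 1.14 in pools 1 to 3 and 0.67 without pool 2. Snai2, a repressor of epithelial genes, stood at -1.26 (SE 0.78), with 0.46, -2.48 and -1.75 in the pools and -0.69 without pool 2. Another tested probe set of Snai2 stood at 0.16. Tgif2, the target gene lower in all 3 pools, stood at -1.28 (SE 0.74), with -0.05, -2.62 and -1.18 in the pools. It was -0.66 without pool 2, and another tested probe set of Tgif2 gave -0.13 with all pools. The mean over smooth muscle and pericyte markers was 4.90 to 5.32 on ALDH-positive arrays and 3.725 to 5.06 on ALDH-negative arrays. Cnn1 and Rgs5 lay below the filter level. Of the 6 tested markers 3 lay higher in the mean and 3 lower, where 46.0% of all genes lay higher. Acta2, Tagln and Myl9 (2.62) were higher, and Myh11 (-1.05), Pdgfrb (-0.82) and Des (-0.33) lower. Without pool 2 the last 3 stood at 0.053, 0.21 and 0.64. The part of these markers in the target differences was not tested.

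**Figure D3:**
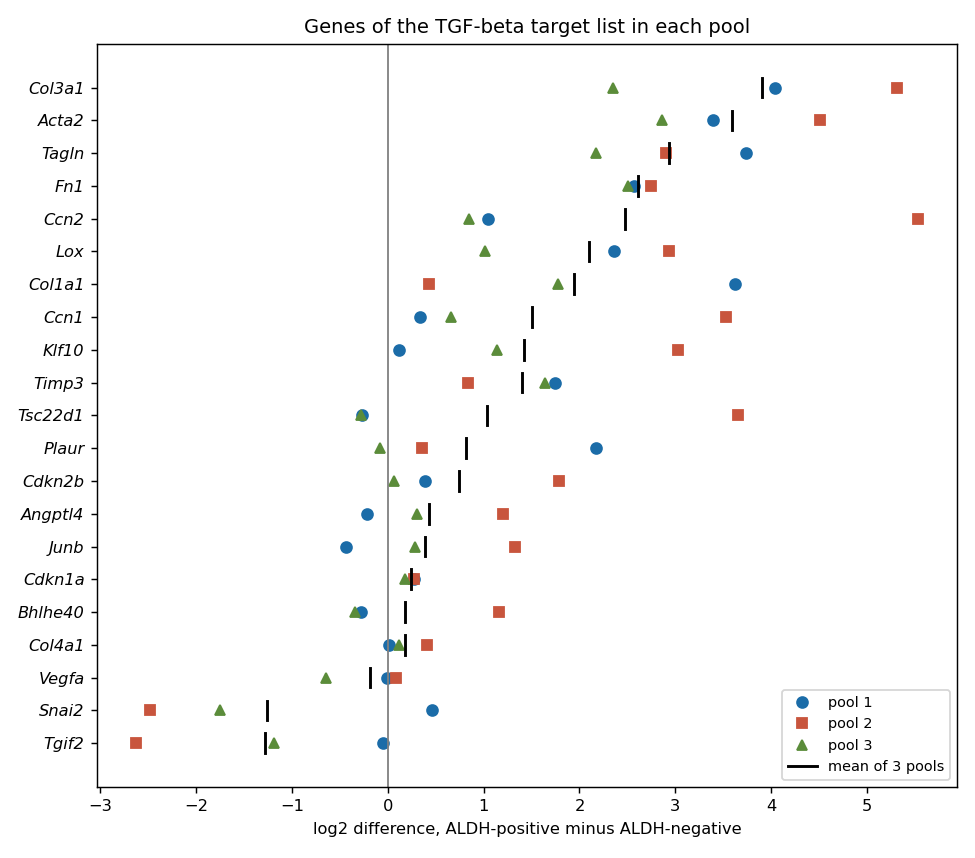
Log2 difference, ALDH-positive minus ALDH-negative, in each pool for the 21 tested genes of the target list, ordered by the mean of the 3 pools (bar). Col3a1, Acta2, Tagln and Fn1 lie above 2 in every pool, and the pool 2 squares of Ccn2, Ccn1, Klf10 and Tsc22d1 lie far from the other pools.

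Ligands and receptors of the activin and BMP branch of the family showed no common direction in the mean. Of 17 tested genes 8 lay higher and 9 lower, where 46.0% of all genes lay higher, and the median was -0.02, or 0.13 without pool 2. In all 3 pools 5 lay higher (11.3% of all genes) and 2 lower (11.4% of all genes). An unadjusted p under 0.05 was found for 1 of the 17, in the higher direction (1.93% of all genes). This was Bmp4, a ligand of the BMP branch, at 1.86 (SE 0.67) with 1.63, 1.20 and 2.74 in the pools. The ALDH-negative level of Bmp4 averaged 2.61, below the filter level, so the gene passed the filter through its ALDH-positive level. Bmp6 stood at 1.31 (SE 0.65), the activin subunit gene Inhbb at 1.497 (SE 0.71) and the receptor gene Bmpr1a at 1.45 (SE 0.75), with 0.56, 3.03 and 0.76 in the pools and 0.70 without pool 2. The other tested probe sets of Bmpr1a reached down to -0.15.

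**Figure D4:**
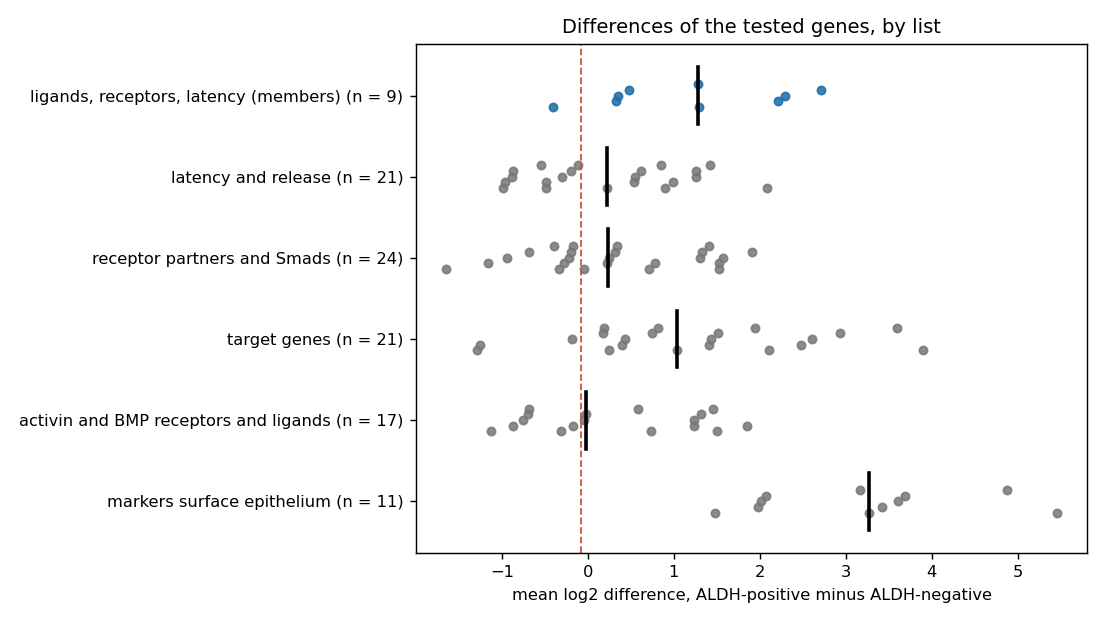
Mean log2 difference, ALDH-positive minus ALDH-negative, of each tested gene in 6 lists, with a black bar at the median of the list and a dashed line at the median over all genes tested, -0.08. The members (blue) have a median of 1.28 by their probe sets of highest mean, the target genes 1.03 (0.48 without pool 2), and the surface epithelium markers 3.27.

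Over the 9 members by their probe sets of highest mean the median was 1.28, and 0.44 without pool 2. The mean log2 level over granulosa markers was 5.74 to 5.998 on ALDH-positive arrays and 4.34 to 6.32 on ALDH-negative arrays, with Fshr below the filter level. Over theca, interstitial and luteal markers it was 7.755 to 8.15 on ALDH-positive arrays and 4.76 to 8.58 on ALDH-negative arrays, with Cyp17a1 below the filter level. In both lists the lowest array was the ALDH-negative one of pool 2, as it was, among tested member probe sets, for Ltbp1 at 1448870_at, Tgfb2 at 1450923_at and 1450922_a_at, and Tgfbr1 at 1420895_at and 1420893_a_at. Endothelial markers averaged 2.45 to 2.82 on ALDH-positive arrays and 2.64 to 3.42 on ALDH-negative arrays, with 4 of 7 below the filter level. Leukocyte markers averaged 2.40 to 3.59 on ALDH-positive arrays and 2.73 to 3.997 on ALDH-negative arrays, with 2 of 7 below it. The part of these cell types in the member differences was not tested.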

How the data were processed

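Per the labels' protocols, RNA of the sorted cells was amplified from small amounts (Ovation Pico WTA), labelled with biotin and hybridized to an Affymetrix mouse genome array; such amplification can lose scarce transcripts unevenly. The deposited values, 0.035 to 13.1 for 45101 probe sets, were taken as log2 signal from their range, since no header names the scale; how the authors summarised and scaled the probes is not stated in any source at hand. Deposited array medians differed by 0.46, so 64 control probe sets were dropped and quantile normalization was applied, which gives every array the same distribution.

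Gene names came from the platform annotation in GEO, and 34741 of 34945 single-symbol probe sets matched RefSeq (GRCm38.p6) by Entrez identifier. The lower 40% by mean were removed. The test was limma 3.58.1 (R 4.3.3; lmFit and eBayes) with pool as a fixed term, and p-values were adjusted by the Benjamini-Hochberg method. The pairing comes from the series design; deviations of same-pool arrays correlated at 0.34, -0.19 and 0.31, so the values alone did not single out the pairs. The probe set of highest mean stands for a gene. The p-values and SEs rest on the spread among 3 pools, which eBayes moderates toward a spread shared by all tested probe sets. For Ltbp2 the SD of the pool differences was 0.052, while the SE was 0.63. The number of arrays limits the precision. The script was tested on simulated data.

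Members and lists (latency and release, receptor partners and Smads, target genes, activin and BMP, cell type markers) were chosen with earlier results of these data known. Named are all members, the 4 list genes of smallest p, direct partners of the members, and the 3 genes most like each ligand. Lox, Col1a1, Ccn2, Klf10, Junb, Snai2, Tgif2 and markers beside levels were named after their values were seen. So were the other probe sets of Bmpr1a, Itgav, Tgm2, Thbs1 and Dab2. Fbn1 and Lrrc32 are not analysed here. Alternatives covered scaling, filter, block, pools, array weights and variance moderation. SAM, named in the series design, was not run.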

Additional observations from a re-analysis of the deposited data

How the results depend on the processing

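Among all probe sets, 0 passed the adjusted threshold in limma as reported above and with other scaling, filters, variance moderation, no pool term or the ALDH-negative array of pool 2 left out, where 542 to 910 had an unadjusted p under 0.05. Leaving out a pool gave 0 to 7 calls (7 without pool 1), none of them a member. With array weights limma called 2953 probe sets and 4 members, namely Ltbp2, Tgfb3, Tgfbr2 at 1426397_at and Tgfb2 at 1450922_a_at; these weights are equal within a pool (0.158 for pool 2 and 4.87 for pool 3), so that fit rests mostly on pool 3. Member probe sets with an unadjusted p under 0.05 numbered 4, 2 to 7 when a pool was left out and 7 with array weights. The share of all probe sets moved too, at 2.45% as reported, 7.46%, 4.53% and 3.30% without pools 1, 2 and 3, and 24.5% with array weights. Without the replicate block there were 0 calls and the same 4 at an unadjusted p under 0.05.

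Scaling the arrays otherwise (as deposited or median-centred), changing the filter or the variance moderation, and dropping the replicate block reversed no tested member. Median centring put the median of all probe sets at 0.22 and that of the member genes at 1.55. Leaving out pool 1 also reversed none. The settings below reversed some, and the cause was not tested. With the ALDH-negative array of pool 2 left out and no pool term, Tgfbr1 stood at -0.24 (1420895_at) and -0.45 (1420893_a_at), Tgfbr2 at 0.31 (1425444_a_at), Tgfbr3 at -0.017 (1425620_at) and -0.12 (1433795_at) and Ltbp1 at -0.14 (1448870_at). With array weights these probe sets, apart from Tgfbr1 at 1420895_at, stood at -1.27, 0.39, -0.44, -0.078 and -0.098. Leaving out each pool gave ranges of -1.22 to 1.66 for Tgfbr1 (1420893_a_at), -0.76 to 0.27 for Tgfbr2 (1425444_a_at), -0.485 to 0.77 and -0.30 to 0.59 for Tgfbr3 (1425620_at and 1433795_at), -0.34 to 2.08 for Ltbp1 (1448870_at) and -0.68 to 0.070 for Tgfbi (1437463_x_at). The mean of its tested probe sets put Ltbp1 at -0.017. By alternatives chosen after seeing the data, the target genes with an unadjusted p under 0.05 numbered 5, 7 and 6 without pools 1, 2 and 3 and 7 without the ALDH-negative array of pool 2, against 7 with all arrays. The surface epithelium markers numbered 7, 9 and 8, and 11, against 10 of 11 with all arrays. In the higher direction, 1.74% to 4.52% of all genes had such a p in these fits. Fits without pool 1 or pool 3 give every probe set the same SE. Dim signal, near or below 2.73, limits Ltbp2 and Tgfb3 in ALDH-negative cells and Tgfbi in both. Single ALDH-negative arrays were dim for other members too, such as Tgfb2 at 1450923_at (1.77 in pool 2) and Tgfb1 at 1420653_at (2.46 in pool 3). Tgfbr1 at 1420893_a_at read 1.27 in ALDH-negative cells of pool 2 and 1.54 in ALDH-positive cells of pool 3. Among the named genes of the pathway lists, dim signal limits Bmp4 and Ltbp4 in ALDH-negative cells. In ALDH-negative cells of pools 2 and 3, Bambi read 2.30 and 2.66, and Inhbb 2.76 and 2.67.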
